A study of Saccharomyces cerevisiae with 12 samples.

Results

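The genes examined here carry symbols used for proteins of the mitochondrial ribosome of budding yeast. They are the nuclear genes of the R64 annotation whose symbol begins with MRPL, MRPS, MRP and a number, or RSM and a number. The rule gave 66 of the 5840 nuclear protein-coding genes considered, and 1 further gene with such a symbol, MRPL32, lies on chromosome III, which was left out because the build of the deposited maps differs there. The annotation placed 37 of the 66 in the large (54S) subunit and 27 in the small (37S) subunit. RSM22 and MRP8 were annotated to neither. The rule uses symbols and no measured value, but the group was picked for description with earlier results of these data known.

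The mitochondrial ribosome translates the few messages of the mitochondrial genome, chiefly membrane subunits of the respiratory chain and of the ATP synthase. Nearly all of its proteins are encoded in the nucleus, made on cytosolic ribosomes and imported, and many of their messages are bound by the RNA-binding protein Puf3 in their 3′ untranslated region. Topoisomerase 2 (Top2) passes a DNA duplex through a transient double-strand break in another, and while the break is open each subunit is joined to a 5′ end, with the paired bonds staggered by 4 bases.

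CC-seq recovers DNA ends that still carry covalently bound protein and records the terminal 5′ nucleotide of each, called a hit. The 12 libraries were 6 groups of 2 biological replicates: the strains pdr1, pdr1sae2 and pdr1mre11, each untreated (UT, 2% DMSO) or exposed to 1 mM VP16 for 4 h in rich medium at 30 °C. VP16 (etoposide) holds Top2 on the DNA it has cut. Every strain was BY4741 and carried the pdr1DBD-CYC8 cassette, a repressor fusion that lowers drug export, so no group had a wild-type PDR1. SAE2 and MRE11 act in removing proteins from DNA ends, and pdr1sae2 and pdr1mre11 lack SAE2 or MRE11 in addition. Whether hits in untreated cells come from Top2 was not tested.

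Libraries held 751850 to 3646842 hits, of which 685100 to 3463679 were nuclear. The targeted genes were checked over the 500 bp stretch with the fewest hits in the libraries of the strains altered there, so low counts in those libraries partly follow from the choice. Such a stretch of PDR1 held 0 to 1 hits in each of the 12 libraries. In a stretch of SAE2 there were 1 to 4 hits per library of pdr1sae2 and 22 to 160 per library of the 8 others, and a stretch of MRE11 held 0 hits in the 4 pdr1mre11 libraries and 22 to 99 in the others. VP16-trapped Top2 is known to favour cytosine just 5′ of the cut bond. Cytosine stood there for 20.5% to 22.9% of the hits in member windows in the 6 untreated libraries. With VP16 it stood there for 64.8% and 52.5% in pdr1, 46.5% and 60.0% in pdr1sae2, and 63.9% and 64.6% in pdr1mre11, for replicates 1 and 2 in turn. Replicate 2 of pdr1 and replicate 1 of pdr1sae2 were thus the lowest of the VP16 libraries, as they were over all genes (51.4% and 46.5%). The main counts are given with and without them.

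For each gene, hits were summed over both strands in the reading frame, in the 500 bp before the start codon (upstream) and in the 500 bp after the stop codon (downstream). The reading frame was taken from the first to the last coding base, so any intron, as in MRPL44, was counted in it. A library held 19 to 573 hits in the upstream window of a member, 9 to 544 in a reading frame and 11 to 363 downstream. Levels are given as hits-per-million of the nuclear hits of the library (HpM), or as HpM per kb where windows of different length are set side by side. All 66 members passed the filter on low counts in every window. Changes are log2 fold changes from edgeR, with p-values adjusted over 17214 windows (Benjamini-Hochberg), and a window was called at an adjusted p under 0.05. The standard error of a change was derived from its size and the F statistic of its quasi-likelihood test. All are relative changes: TMM normalization sets the typical window near 0, with a median of 0.01 over all windows tested.

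The sites with the most hits are shown first. A site is a Watson position and the Crick position 3 bp further on, the spacing that a cut with 4 overhanging bases gives. The 6 sites of the member windows with the highest mean level with VP16 are printed 5′ to 3′ on the Watson strand of R64. Capitals mark the 4 overhanging bases and the base on either side, so that the first capital is the base 5′ of the Watson bond and the last is the complement of the base 5′ of the Crick bond.
MRPL35 upstream, chrIV:1110477-1110506: taaaccggaagcCGGAAGgtctgggataag
MRPL39 upstream, chrXIII:251578-251607: gagcagtcaataCGTTTGtatgcagtgaat
MRP13 upstream, chrVII:648141-648170: attttcttaataAGAAAGgtttagcttttt
MRPS35 upstream, chrVII:828647-828676: aaccaagaaagcCTACAGtacagaggtgcc
MRPL50 downstream, chrXIV:669491-669520: gtcaattgaaggCCTCTGgtcaacaagaaa
MRP21 downstream, chrII:49503-49532: aggaaataaataCTGTTGctcgaacgaaca

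Cytosine was the base 5′ of both bonds in 5 of these 6 sites, and of the Crick bond alone in the site of MRP13. The 60 bp around each occurred once in the genome. The strongest site lay 99 bp before the start codon of MRPL35, which encodes mL38 of the large subunit (chromosome IV, 1110589 to 1111692, Watson strand). It held 303, 151, 95, 236, 176 and 247 hits in the 6 VP16 libraries, in the order pdr1, pdr1sae2, pdr1mre11 with replicate 1 before 2. In the untreated libraries the same site held 4, 0, 9, 1, 5 and 0 hits. The mean level was 95.8 HpM with VP16 and 1.25 HpM without, and with VP16 this 1 site took 52.4% to 64.3% of the hits in its 500 bp window.

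The other sites were as nearly silent in untreated cells, at a mean of 0.209 to 1.40 HpM. At the site upstream of MRPL39, for bL33m of the large subunit, the 6 VP16 libraries had 35.4 to 75 HpM, at 75 bp before the start codon. The site of MRP13, for mS44 of the small subunit, lay 12 bp before the start codon and had 22.4 to 60.5 HpM with VP16. The site of MRPS35, for mS45 of the small subunit, had 18.1 to 53.6 HpM with VP16 and lay 456 bp before the start codon, inside the neighbouring reading frame YGR164W. Sites of that kind show that a flank is not always intergenic. The MRPL50 site (25.1 to 48.5 HpM with VP16) lay 270 bp past the stop codon of that gene for bL9m, inside the reading frame YNR021W. The MRP21 site (24.2 to 45.1 HpM with VP16) lay 158 bp past the stop codon of that gene for bS21m.

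The 4 sites with the highest mean level in untreated cells, a set chosen after the values were seen, had different bases at the bonds. Cytosine was 5′ of the Crick bond at the MRPL37 site and of neither bond at the other sites.
MRPL27 upstream, chrII:768149-768178: aggactattgaaGTAGTAtacaccaatttt
RSM28 upstream, chrIV:1436606-1436635: tttatcttcgaaGCTATAtacatgtaaata
MRPL37 upstream, chrII:741174-741203: taaatgcgtgatGCCGGGtatttgtgcgcc
MRPS17 upstream, chrXIII:637234-637263: tccttttcggagTCATGActctcagaggag

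The MRPL27 site lies 78 bp before the start codon of the gene for mL41 of the large subunit (chromosome II, 768240 to 768680, Watson strand). Its untreated levels were 38.3 and 24.8 HpM in pdr1, 65.4 and 18.6 HpM in pdr1sae2, and 102 and 46.9 HpM in pdr1mre11. With VP16 they were 11.5 and 12.4, 11.2 and 7.59, and 4.84 and 5.77 HpM. All 6 untreated libraries were above all 6 VP16 libraries. Within each strain the untreated library numbered 1 exceeded that numbered 2, by more than 1.5-fold, and the same order held at the sites of RSM28 (54.9 and 17.5 HpM in untreated pdr1) and MRPS17 (20.1 and 7.30 HpM). At the site of MRPL37 the order was the opposite (9.67 and 33.6 HpM in untreated pdr1). The untreated libraries numbered 1 were also the deeper ones, with 2584856 to 3463679 nuclear hits against 685100 to 1023337 in those numbered 2, and the part of depth in these levels was not tested.

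The map of hits upstream of MRPL35 and MRPL27 shows both kinds of site.

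**Figure D1:**
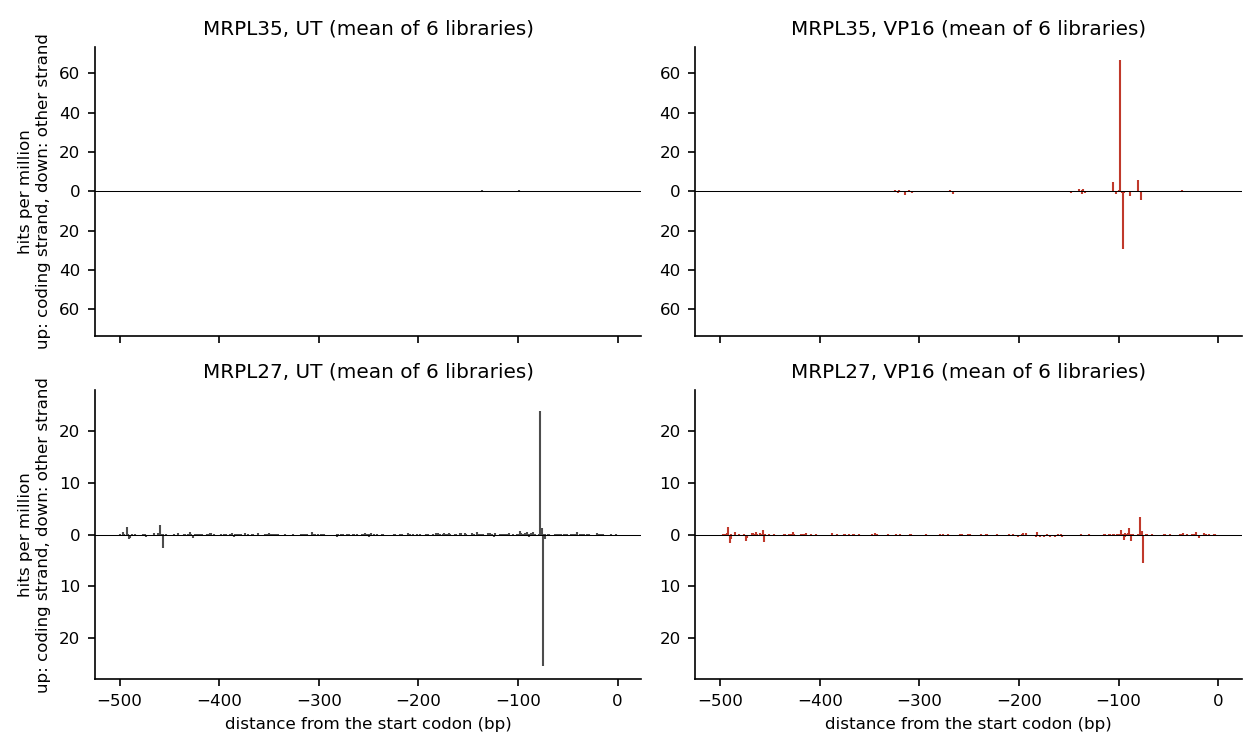
Mean HpM at each position upstream of MRPL35 (top) and MRPL27 (bottom) over the 6 untreated (UT, grey) and 6 VP16 libraries (red), with coding-strand hits drawn upward and other-strand hits downward; the horizontal axis is the distance from the start codon in bp and each gene has its own vertical scale. The MRPL35 site at 99 bp is seen with VP16, and the MRPL27 site at 78 bp is higher without VP16.

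Upstream windows of the members mostly took a larger share of hits with VP16. Of the 66, 44 rose and 9 fell, where over all genes 54% of upstream windows rose and 12% fell. The median change was 0.48 for the members and 0.33 for all genes. In 36 members (54.5%) all 6 VP16 libraries were above all 6 untreated libraries, as in 39.6% of all upstream windows, and in 2 members (3.03%) all were below, as in 2.49% of all. With total nuclear hits in place of TMM, which moves the median of all windows by 0.14, 47 rose and 6 fell, against 64.0% and 7.54% of all upstream windows. Without pdr1 VP16 replicate 2 the counts were 44 and 9, and without pdr1sae2 VP16 replicate 1 they were 44 and 8.

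The subunits were also counted apart, without a test of the difference. Among the 37 large subunit genes 24 rose and 5 fell, with a median of 0.48, and among the 27 small subunit genes 18 rose and 4 fell, with a median of 0.39. Of the 2 genes of neither subunit, RSM22, for a protein with a methyltransferase fold, changed by 0.78 and MRP8, of less certain function, by 0.49, both rises. The 44 rises ran from 0.26 to 2.05 with a median of 0.60, the 9 falls from -1.18 to -0.34, and the 13 members that were not called from -0.19 to 0.25.

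The largest rises were in MRPL35, MRPS35, MRPL31 and MRPL39. Upstream of MRPL35 the untreated libraries had 32.5 and 38 HpM in pdr1, 34.4 and 50.7 in pdr1sae2, and 28 and 34.2 in pdr1mre11. The VP16 libraries had 222 and 161, 149 and 164, and 135 and 130 HpM. The treatments were thus far from overlapping, and the change was 2.05 ± 0.12 (SE, adjusted p = 4.05e-13, edgeR). Without the site with the most hits over the 12 libraries, called the strongest site of a window here, the change was 0.94.

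MRPS35 followed (chromosome VII, 829116 to 830153, Watson strand). Its untreated upstream levels were 37.5 and 51.1, 41.4 and 42.4, and 39.0 and 53.7 HpM, and its VP16 levels 155 and 125, 121 and 124, and 105 and 119 HpM. The groups did not overlap, and the change was 1.40 ± 0.12 (adjusted p = 1.35e-10, edgeR). Without its strongest site it was 1.03.

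MRPL31, for mL60 of the large subunit (chromosome XI, 185286 to 185681, Crick strand), had 41.4 and 33.6, 45.3 and 52.8, and 56.3 and 54.7 HpM untreated. With VP16 it had 163 and 115, 109 and 127, and 131 and 136 HpM, again without overlap (1.31 ± 0.12, adjusted p = 5.73e-10, edgeR). MRPL39 (chromosome XIII, 251304 to 251516, Crick strand) had 45.2 and 36.5, 49.5 and 52.8, and 61.8 and 49.8 HpM untreated. Its VP16 libraries had 153 and 113, 121 and 132, and 144 and 151 HpM (1.30 ± 0.11, adjusted p = 1.85e-10, edgeR). Their windows differed in how far a single site carried the change, which was 1.12 for MRPL31 and 0.59 for MRPL39 without the strongest site. MRPS8, for uS8m of the small subunit, completed the 5 highest VP16 levels, with 102 to 151 HpM (median 121) against 48.2 to 66.4 untreated (median 57.6) and a change of 0.94.

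**Figure D2:**
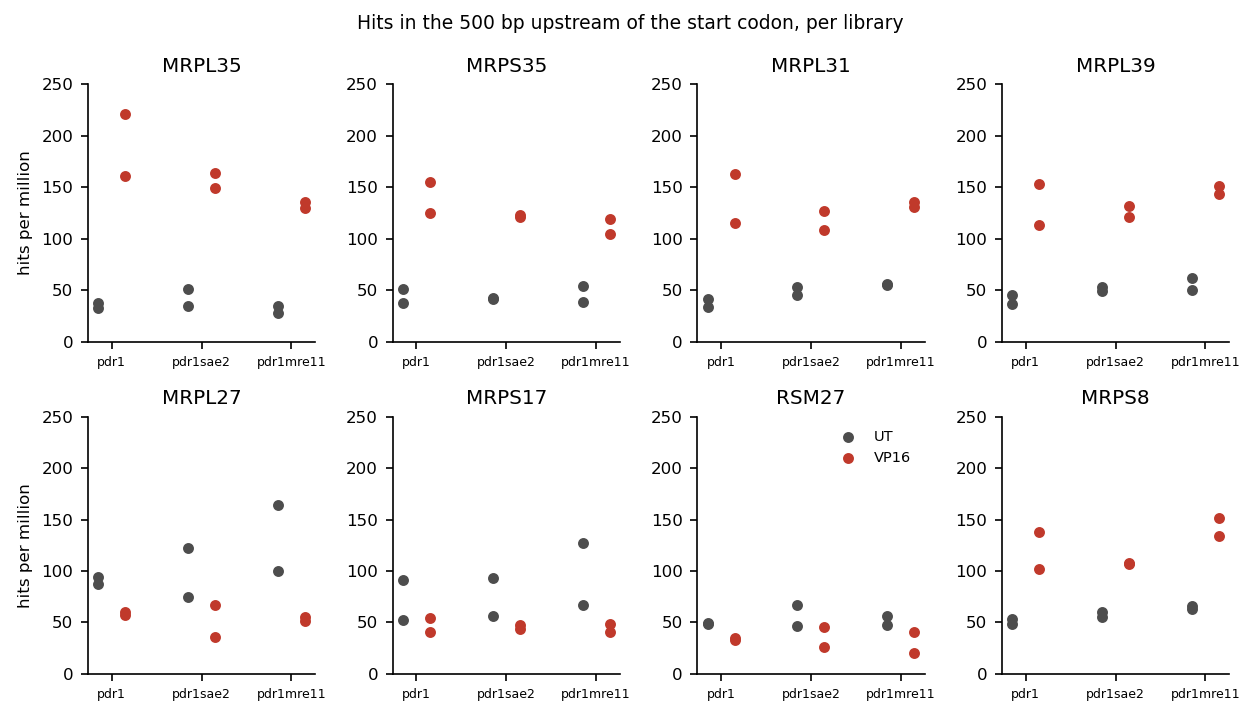
HpM in the 500 bp upstream window of 8 members, with a point for each library, grouped by strain (UT grey, VP16 red). In the top row and MRPS8 every VP16 library lies above every untreated library, in MRPL27 and RSM27 every VP16 library lies below, and in MRPS17 the treatments overlap.

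The members that fell upstream were fewer. MRPL27 had 94.4 and 87.6 HpM in untreated pdr1, 123 and 74.5 in pdr1sae2, and 164 and 99.7 in pdr1mre11. With VP16 it had 57.3 and 60.1, 67.1 and 36.3, and 55.2 and 51.6 HpM. This was the highest untreated level per kb of the 66 upstream windows, and it fell by 1.18 ± 0.15 (adjusted p = 1.31e-07, edgeR). Without the strongest site, which held 25.0% to 62.0% of its untreated hits, the change was -0.38 (adjusted p = 0.0081), and with each position counted once it was not called (-0.12).

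MRPS17, for uS17m of the small subunit (chromosome XIII, 636291 to 637004, Crick strand), had 91.3 and 52.5, 93.2 and 55.9, and 128 and 67.4 HpM untreated. Its VP16 levels were 54.5 and 40.9, 43.8 and 47.2, and 48.4 and 40.7 HpM. The groups overlapped, since the pdr1 untreated replicate 2 lay below the pdr1 VP16 replicate 1, and the change was -1.04 ± 0.16 (adjusted p = 1.21e-06, edgeR). RSM27, for mS33 of the small subunit (chromosome VII, 922175 to 922507, Watson strand), had 48.3 and 49.6, 46.4 and 67.3, and 47.9 and 56.7 HpM untreated. With VP16 it had 35.3 and 32.8, 45.6 and 26.6, and 41.1 and 20.4 HpM, the lowest mean of any member, and fell by 0.80 ± 0.15 (adjusted p = 4.79e-05, edgeR). No other member that fell did so in all 6 same-numbered pairs, which served to choose named genes and were not pairs in the fit. RSM28, for mS46 of the small subunit, named here for its untreated site, fell by 0.78 over the 12 libraries but was higher with VP16 in 2 of the 6 pairs.

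The next lowest VP16 means were those of MRPL3 and MRPL44, for mL44 and mL53 of the large subunit. MRPL3 fell by 0.38 (adjusted p = 0.0236), and this call was lost without pdr1sae2 UT replicate 2, pdr1mre11 UT replicate 1, pdr1 VP16 replicate 1, pdr1sae2 VP16 replicate 1 or pdr1mre11 VP16 replicate 2. MRPL44 changed by -0.18 and was not called (adjusted p = 0.292).

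In reading frames the members went down more often than up. With VP16 11 of the 66 rose and 29 fell, where over all genes 9.84% of reading frames rose and 61.4% fell. The median change was -0.23 for the members and -0.39 for all genes, and with total nuclear hits as library sizes 15 members rose and 18 fell, against 15.2% and 50.9% of all frames. Without pdr1 VP16 replicate 2, 10 rose and 27 fell, and without pdr1sae2 VP16 replicate 1, 9 rose and 32 fell. The large subunit had 6 rises and 16 falls (median -0.23) and the small subunit 4 and 12 (median -0.22). All VP16 libraries were below all untreated libraries in 9 members (13.6%, against 28.9% of all reading frames) and above them in 8 (12.1%, against 8.08%).

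Reading frames of the members were short, with a median of 706.5 bp against 1206 bp over all genes. Across genes, the Spearman correlation of frame length with the change was -0.28 over the 66 members and -0.32 over all genes, given as a description. The part of length in the smaller number of falls was not tested further.

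MRPS16, for bS16m of the small subunit (chromosome XVI, 528985 to 529350, Crick strand), had the largest rise in a frame. Its untreated levels were 25.9 and 13.1, 32.1 and 21.7, and 30.9 and 30.3 HpM, and its VP16 levels 96.7 and 47.1, 54 and 47.6, and 92.7 and 55.0 HpM. The treatments did not overlap (1.11 ± 0.18, adjusted p = 3.16e-06, edgeR). The frame of MRPL39 rose by 1.01 ± 0.16 (adjusted p = 5.01e-06), from a median of 18.8 HpM to one of 43.6 HpM. That of MRP10, a small subunit protein (mS37) with paired cysteine motifs, rose by 0.94 ± 0.16, with 14.1 to 25.9 HpM untreated and 35.9 to 49.6 HpM with VP16. MRPL31 was the remaining one, at 0.72 ± 0.13, and is the only one of these 4 that was not called without its strongest site (0.28, adjusted p = 0.101).

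The largest fall was in MRPS5, for uS5m of the small subunit (chromosome II, 721390 to 722313, Watson strand). Its frame had 89.7 and 86.1, 81.2 and 98.4, and 90.4 and 75.2 HpM untreated. With VP16 it had 35.3 and 48.3, 31.7 and 40.9, and 35.5 and 38.7 HpM, all below the untreated libraries (-1.31 ± 0.12, adjusted p = 2.66e-10, edgeR). The frame of MRPL28, for mL40, fell by 1.10 ± 0.17, with treatments that overlapped (21.5 to 42.9 HpM untreated, 14.2 to 26.1 HpM with VP16). MRPS35, next to MRPL35 in its rise upstream, fell by 1.06 ± 0.12 in its frame, from 84.3 to 103 HpM down to 38.3 to 60.5 HpM. MRPL36, for bL31m, fell by 0.86 ± 0.13, from 40.9 to 65.8 HpM down to 28.2 to 41.9 HpM.

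The windows of a member did not always move together. In 19 of the 66 (28.8%) the upstream window rose and the frame fell, as in 31.3% of all genes tested in both windows. In 9 (13.6%, against 6.22%) both rose, and these were MRP1, MRP7, MRP10, MRPL9, MRPL13, MRPL31, MRPL39, MRPS16 and RSM22. In 4 (6.06%, against 7.97%) both fell, among them MRPL3 and MRPL11. Of the members that fell upstream, MRPL27 and RSM27 were the 2 whose frame rose instead (0.32 and 0.35). Windows of the same gene share libraries, and these overlaps were not tested.

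**Figure D3:**
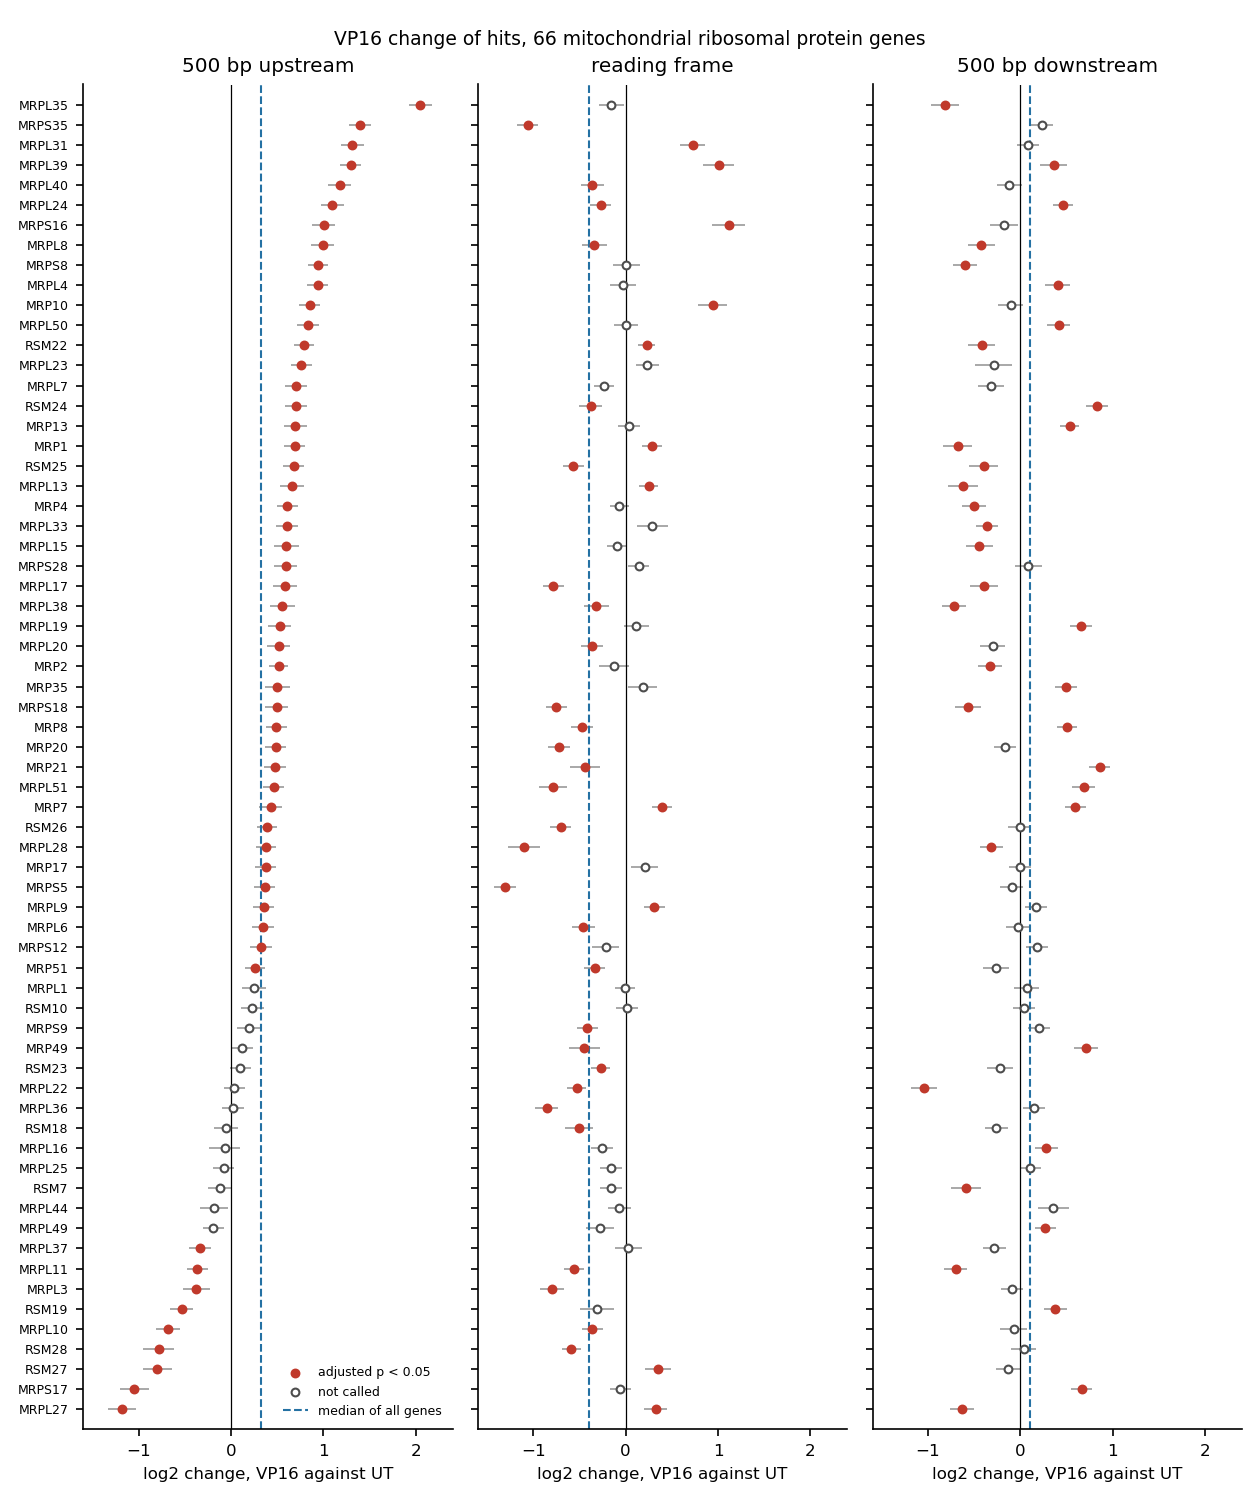
VP16 against untreated log2 change (edgeR, 12 libraries, horizontal bars are standard errors) for the upstream window, reading frame and downstream window of the 66 members, ordered by the upstream change. Filled points were called at an adjusted p under 0.05, and the dashed line is the median of all genes, at 0.33 upstream, -0.39 in the frame and 0.10 downstream; MRPL35 stands at 2.05 and MRPL27 at -1.18.

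Downstream windows were divided. Of the 66 members 17 rose and 19 fell, where over all genes 37.5% rose and 24.4% fell. The median was -0.08 for the members and 0.10 for all genes. This balance depended on the scaling, since with total nuclear hits as library sizes 23 rose and 11 fell, and it moved in the same way over all genes (46.3% and 17.3%). Without pdr1 VP16 replicate 2, 18 rose and 19 fell, and without pdr1sae2 VP16 replicate 1, 16 rose and 18 fell. The large subunit had 11 rises and 11 falls (median -0.07), and the small subunit 5 and 7 (median -0.09). All VP16 libraries were above all untreated ones in 11 members (16.7%, against 25.9% of all downstream windows) and below them in 4 (6.06%, against 6.40%).

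MRP21 (chromosome II, 48825 to 49358, Watson strand) had the largest downstream rise. It had 50.7 and 45.2, 57.3 and 62.1, and 50.8 and 52.8 HpM untreated, and 115 and 81.7, 103 and 98.2, and 114 and 123 HpM with VP16. The treatments did not overlap (0.86 ± 0.11, adjusted p = 2.13e-07, edgeR), and with the strongest site removed the change was 0.48. RSM24, for mS35, rose by 0.83 ± 0.12, from 26.3 to 42.0 HpM up to 59.0 to 77.0 HpM. MRP49 and MRPL51, both of the large subunit, rose by 0.71 ± 0.13 and 0.68 ± 0.13.

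MRPL22, for uL22m of the large subunit (chromosome XIV, 303686 to 304615, Crick strand), had the largest downstream fall. It had 54.9 and 40.9, 54.5 and 54.9, and 75.4 and 46.9 HpM untreated, and 37.1 and 27.9, 23.3 and 31.6, and 30.6 and 28.8 HpM with VP16 (-1.04 ± 0.14, adjusted p = 2.60e-07, edgeR). Every VP16 library was below every untreated library. MRPL35, first among the upstream rises, fell by 0.81 ± 0.15 downstream. MRPL38 and MRPL11, for uL14m and uL10m, fell by 0.71 ± 0.13 and 0.70 ± 0.12.

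The levels themselves were spread more widely with VP16. In untreated cells the mean upstream level ran from 72.6 HpM per kb at MRPL35 to 214 at MRPL27, with a median of 96.9 over the 66. With VP16 it ran from 67.3 at RSM27 to 321 at MRPL35, with a median of 143 HpM per kb. MRPL35 was thus the lowest upstream window untreated and the highest with VP16. Frames ran from 70.1 to 105 HpM per kb untreated and from 41.5 (MRPS5) to 200.1 (MRPL39) with VP16, and downstream windows from 69.2 to 124 and from 55.3 (MRPL35) to 212 (MRP21).

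The position of the upstream hits differed from the average gene. In the bin 51 to 100 bp before the start codon the members had 126 HpM per kb untreated and 304 ± 46.3 with VP16 (SD over 6 libraries of 3 strains), and all genes 106 and 180. For the members that bin holds strong single VP16 sites of MRPL35 (95.8 HpM), MRPL39 (60.2 HpM), MRPL24 (31.6 HpM) and MRPS16 (26.9 HpM). It also holds the MRPL27 site at 78 bp, with a mean of 49.3 HpM in untreated cells. The level of the bin without these sites was not computed for either treatment. Over 1 to 200 bp the members had 109 ± 9.88 HpM per kb untreated and 219 ± 31.2 with VP16, against 102 and 170 for all genes. From 201 to 500 bp the members had 94.1 and 102, and all genes 94.3 and 122. The excess with VP16 thus lay in the nearer stretch. The same was seen in medians over genes, which were 103 and 200 HpM per kb for the members and 96.0 and 149 for all genes over 1 to 200 bp, and 90.3 and 90.3 against 89.1 and 103 over 201 to 500 bp. When 200 bp flanks were used instead of 500 bp, 51 members rose upstream and 6 fell, with a median of 0.89, where 53.7% of all genes rose and 12.3% fell, with a median of 0.46.

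**Figure D4:**
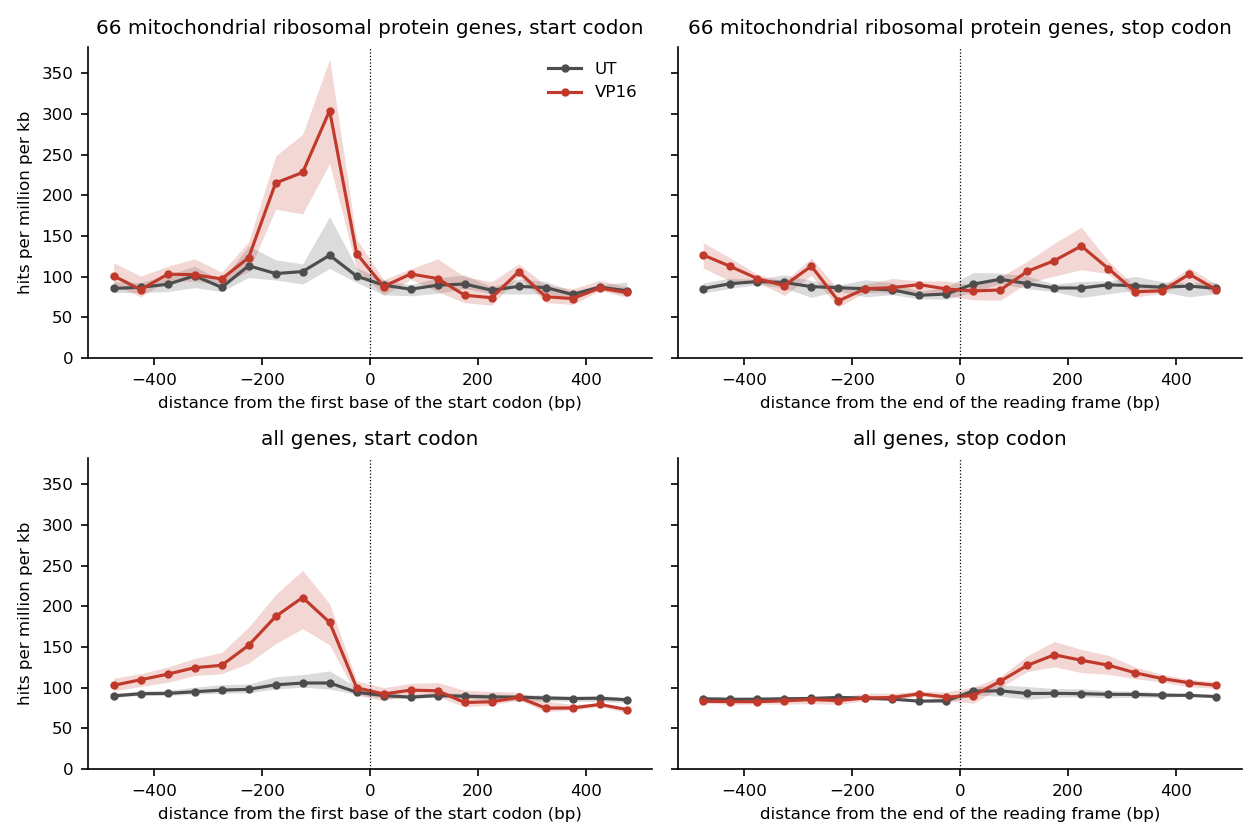
Mean HpM per kb in 50 bp bins around the start and stop codons of the 66 members (top) and all genes (bottom), untreated grey and VP16 red, with shading from the lowest to the highest of the 6 libraries. With VP16 the members reach 304 in the bin 51 to 100 bp before the start codon, and all genes reach 211 in the bin 101 to 150 bp before it. The strong sites upstream of MRPL35 and MRPL39 lie in that bin of the members.

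Each gene has its own strongest upstream site. With VP16 it lay a median of 132.5 bp before the start codon in the members and 184 bp in all genes, and within 200 bp in 51 of 66 (77.3%, against 54.4% of all). In untreated cells it lay within 200 bp in 33 members (50%, against 48.4%). With VP16 cytosine was 5′ of both bonds in 26 members (39.4%, against 39.3% of all genes) and of neither in 6 (9.09%, against 5.71%). In untreated cells those counts were 4 (6.06%, against 5.35%) and 37 (56.1%, against 59.4%). The base composition at the bonds was thus close to that of all genes in both treatments.

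The share of a window held by a single site was taken at the site with the highest summed level over all 12 libraries, a choice that mostly follows the VP16 hits. With VP16 that site held a median of 12.3% of the hits of an upstream window in the members and 13.1% in all genes. In reading frames with VP16 the medians were 8.51% and 6.65%, and downstream 11.2% and 11.6%. Upstream with VP16, 8 members (12.1%) had over 25% of the window at that site, against 12.7% of all genes.

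The surroundings of the members are compact. The neighbour on the upstream side was a median of 312.5 bp away, against 450 bp for all genes, and the 500 bp flank entered its reading frame in 51 members (77.3%, against 56.1%). Downstream the flank entered a neighbouring frame in 59 members (89.4%, against 76.0%). The upstream neighbour was divergently transcribed for 37 members (56.1%, against 52.4%), of which 28 rose and 5 fell with VP16 (median 0.49). It lay in tandem for the other 29, of which 16 rose and 4 fell (median 0.35). The same split over all genes was not computed, and the difference between the 2 arrangements was not tested. When flanks were cut at the neighbouring frame, 44 of 63 members rose upstream and 8 fell, against 57.7% and 9.59% of all genes. MRPS12 and RSM19 were the only members whose windows shared bases.

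The 3 strains are set side by side next. The summed upstream density of the 66 was 95.3 to 113 HpM per kb in the 6 untreated libraries and 137 to 164 in the 6 VP16 libraries. Reading frames had 82.4 to 85.6 HpM per kb untreated and 79.9 to 91.8 with VP16, where all genes had 65.3 to 74.0 with VP16, so the 6 VP16 libraries of the members were above those of all genes. Downstream windows had 86.1 to 92.2 untreated and 95.5 to 106 with VP16.

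The log2 ratio of upstream to frame density of the members was 0.18 ± 0.02 in untreated pdr1, 0.21 ± 0.05 in untreated pdr1sae2 and 0.36 ± 0.11 in untreated pdr1mre11, as mean and SD of n = 2 libraries. The VP16 values of these strains were 0.89 ± 0.17, 0.69 ± 0.15 and 0.97 ± 0.05. All 6 same-numbered pairs were higher with VP16, by a mean of 0.60, where all genes were higher by 0.78. Without pdr1 VP16 replicate 2 or pdr1sae2 VP16 replicate 1 the members were higher by 0.64 in either case.

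**Figure D5:**
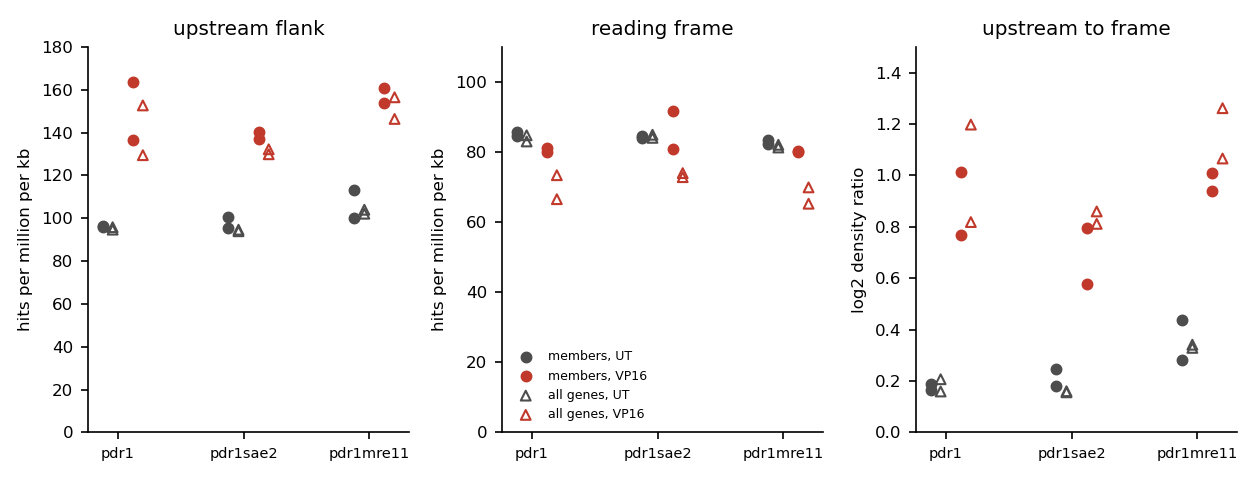
HpM per kb in the upstream flanks (left) and reading frames (middle), and the log2 ratio of these densities (right), with a point for each of the 12 libraries (filled circles, the 66 members; open triangles, all genes; UT grey, VP16 red). The VP16 circles lie above the triangles in the frame panel, where the members had 79.9 to 91.8 and all genes 65.3 to 74.0.

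Within single strains the members were called as follows. In pdr1 68 of the 198 member windows were called, against 38.4% of all windows. Of these, 33 were upstream rises (35.6% of all upstream windows rose) and 14 were falls in the frame (40.1% of all frames fell). In pdr1sae2 45 were called (31.1% of all), with 20 upstream rises (27.4%) and 11 frame falls (31.1%). In pdr1mre11 88 were called (47.4% of all), with 33 upstream rises (40.8%) and 20 frame falls (45.7%). These counts rested on single libraries: without UT replicate 1 or VP16 replicate 1 of pdr1 the first was 20 or 23, without UT replicate 1 or VP16 replicate 2 of pdr1sae2 the second was 17 or 18, and without UT replicate 1 or VP16 replicate 1 of pdr1mre11 the last was 51 or 56.

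The named windows called for VP16 kept their direction in each strain. Windows named for a large rise or fall were picked among those that moved the same way in every same-numbered pair, in all strains. For these windows the kept direction largely follows from that choice and is not a separate result. The upstream change of MRPL35 was 2.35 for pdr1, 1.81 for pdr1sae2 and 2.00 for pdr1mre11, and that of MRPL27 -0.78, -1.20 and -1.49. Across the 66 members the changes of different strains, which share no library, had Pearson correlations of 0.90 to 0.91 upstream, 0.82 to 0.87 in the frame and 0.74 to 0.83 downstream, given as a description of the same windows in each strain.

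Strains were then compared directly, to see whether loss of SAE2 or MRE11 moved hits among the members. Between pdr1sae2 and pdr1 0 member windows were called with VP16 (0% of all windows) and 0 untreated (0.00581%). At an unadjusted p under 0.05 they numbered 3 and 0 of 198, against 2.07% and 0.476% of all windows, and DESeq2 also called 0 and 0. Between pdr1mre11 and pdr1 0 were called with VP16 (0.00581% of all) and 1 untreated (0.0232%), with 10 and 9 at an unadjusted p under 0.05 (7.23% and 4.17% of all), and DESeq2 called 0 and 1. The VP16 response differed from that of pdr1 in 0 member windows for pdr1sae2 (0% of all) and in 0 for pdr1mre11 (0% of all) by edgeR and by DESeq2, with 2 and 5 at an unadjusted p under 0.05 (1.09% and 3.25% of all).

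The window called was downstream of MRPL44 (chromosome XIII, 720960 to 721403, Crick strand), and 194 bp of it lie in the reading frame of MRE11 (718575 to 720653), the gene removed in pdr1mre11. Untreated levels were 40.6 and 55.5 HpM in pdr1, 37.9 and 47.6 in pdr1sae2, and 15.3 and 10.7 in pdr1mre11. The pdr1mre11 libraries were thus below the others (-1.72 ± 0.28, adjusted p = 0.0127, edgeR), on 53 and 11 hits. Leaving out any of the 4 libraries of this contrast ended the call. With VP16 the difference was -0.43 ± 0.23 (adjusted p = 0.703). The window was not called for VP16 over the 3 strains, but was without pdr1 UT replicate 2, pdr1sae2 UT replicate 2, pdr1 VP16 replicate 2 or pdr1sae2 VP16 replicate 2.

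All changes above are relative to the other hits of the same library. To compare amounts, hits were scaled with the factor that the spike-in gave for a group, which ran from 1.36 to 7.69, and both replicates share 1 factor, so their spread leaves out calibration error and these ratios were not tested. Calibrated hits upstream of the members were 2.62 times as many with VP16 as without for pdr1, 3.52 times for pdr1sae2 and 7.01 times for pdr1mre11, close to the 2.48, 3.46 and 6.99 of all genes. In the reading frames the members had 1.59, 2.55 and 4.59 times as many, against 1.40, 2.16 and 3.93 for all genes. Upstream calibrated hits with VP16 were 1.54 times those of pdr1 in pdr1sae2 and 3.73 times in pdr1mre11. Over all genes these ratios were 1.55 and 3.82. On this scale a fall in share need not be a fall in amount: with spike-in library sizes the fitted change upstream of MRPL27 was 0.47.

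Genes of related function were set beside the members. Of 10 further genes for mitochondrial ribosomal proteins under other symbols, 6 rose upstream and 0 fell (median 0.54), 0 rose and 6 fell in the frame (median -0.40), and 3 rose and 0 fell downstream. The largest upstream changes were in RML2 (1.09), NAM9 (1.02) and MHR1 (0.93), the first for uL2m, the next for uS4m and the last for mL67. Of 29 genes for mitochondrial translation factors, tRNA synthetases and translational activators, 14 rose upstream and 2 fell (median 0.20), 4 rose and 22 fell in the frame (median -0.47), and 11 rose and 7 fell downstream. RRF1, the mitochondrial ribosome recycling factor, changed upstream by 1.94, PET122, an activator of COX3 translation, by 1.34, and TUF1, the mitochondrial elongation factor Tu, by 1.11. Of 131 genes for cytosolic ribosomal proteins, 90 rose upstream and 6 fell (median 0.50), 4 rose and 96 fell in the frame (median -0.49), and 63 rose and 24 fell downstream. Their largest upstream changes were in RPL31A (1.78), RPL30 (1.38) and RPL38 (1.38), all of the large subunit.

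Short motifs were counted on both strands of the 250 bases before the start codon. TATAAA, the core of a TATA box, was found in 22 of 66 members (33.3%) and 43.5% of all genes. A run of 7 A (AAAAAAA), whose letters can overlap the end of TATAAA, was found in 25 members (37.9%) and 48.2% of all genes. The 25 with the run had a median upstream change of 0.59 with 21 rises, and the 41 without had 0.37 with 23 rises. The same split over all genes was not computed and the difference was not tested, so it is not read as a trait of the members.

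The members shared a sequence that the symbol rule did not use. TGTANATA, the core of the element bound by Puf3, was found on the coding strand within 250 bases after the stop codon in 64 of the 66 (97.0%), against 15.3% of all genes. The 2 without it were RSM22 and MRP8, the genes annotated to neither subunit. It was found in 10 of 10 of the mitochondrial ribosomal genes with other symbols, 24 of 29 genes of mitochondrial translation (82.8%) and 6 of 131 cytosolic ribosomal genes (4.58%). In 50 members it occurred once and in 14 more often, and the first copy began a median of 51.5 bp past the stop codon (8 to 139 bp). Of the 64, 62 had it within 120 bp. The element is shown in capitals for the genes with the largest upstream rise and fall and the largest frame fall, 5′ to 3′ on the coding strand.
MRPL35, chrIV:1111710-1111739, Watson strand: ttatagtatccTGTACATAtaaaataacgt
MRPL27, chrII:768698-768727, Watson strand: ttcaatatgcgTGTAAATActagttttcga
MRPS5, chrII:722310-722339, Watson strand: ctgaaatactaTGTACATAcacacgcacca

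These 3 genes were chosen for their VP16 changes, and nearly all members carry the element. They therefore cannot show whether the element and those changes are linked. A match is a description of the letters, and nothing in the hits bears on binding of Puf3, which acts on RNA.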

How the data were processed

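The authors aligned paired-end reads of 12 libraries with bowtie2 (version not given in the sources used here) to Cer3H4L2, which is Cer3 altered at his4 and leu2. They used the MAPQ0 setting, taken here as no minimum mapping quality, and wrote the protein-linked 5′ ends with terminalMapper. The deposited maps hold raw hit counts per position and strand, which the authors did not normalize, after they had removed rDNA, telomeres, retrotransposons and long terminal repeats. For every group the authors deposited 1 calibration ratio, derived from human spike-in DNA. Reads of a multi-mapping pair may be assigned to either copy. The reads carried no molecular identifiers, so repeated reads count as separate hits, and counting floors and intervals would cover counting error only; 3 hits correspond to 0.866 to 4.38 HpM by library.

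Stretches of at least 100 bp without a hit in any library (4.45% of the nuclear genome) were treated as masked, and a window needed at least 50 unmasked bases. Coordinates, symbols and sequence came from R64. After filtering, 5779 upstream, 5703 frame and 5732 downstream windows were fitted together with edgeR 4.0.16 (R 4.3.3, limma 3.58.1), with TMM factors, filterByExpr, nuclear hits as library sizes, and the quasi-likelihood test. The VP16 effect was fitted next to a strain term, and strains and their VP16 responses as contrasts of group means. The fit was tested on simulated data in which few windows changed, as many up as down. Most windows were called in the real data, so that simulation does not test the scaling. Alternatives were DESeq2 1.42.0, total or spike-in library sizes, a minimum of 50 hits in every library, each position counted once, 200 bp or trimmed flanks, a replicate block, and leaving out each library. Removing the strongest site of each window, and leaving out libraries for the calibrated hits, were chosen after seeing the data. Other values used Python 3.11.15, numpy 2.4.6, pandas 2.3.3, scipy 1.17.1 and matplotlib 3.10.9.

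The members, lists and tests were chosen with earlier results of these data known. In each window, the text names the 4 largest rises and the 4 largest falls among called members that moved the same way in all 6 same-numbered pairs, the 5 highest and 3 lowest upstream levels with VP16, members called between strains, the 6 strongest sites, and up to 3 genes of each list. The subunit of a member was taken from the annotation, and the stretches of the targeted genes were 500 bp long, the ones with the fewest hits. The translation list held 30 genes, of which SLM5 lies on chromosome III. Replicates were separate biological replicates per the labels. Deviations from group means of same-numbered samples correlated at 0.06, 0.08 and -0.21 between the treatments of a strain, at 0.37 to 0.45 between untreated strains and at 0.08 to 0.27 between VP16-treated strains. The numbers were therefore not taken as pairs in the VP16 fit, whereas untreated samples with a common number did deviate together. Same-numbered pairs, compared in HpM without TMM factors, served only to choose named genes and to describe.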

Additional observations from a re-analysis of the deposited data

How the results depend on the processing

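Upstream, 53 member windows were called for VP16 (44 up, 9 down). The count was 35 with each position counted once (33 up, 2 down, against 42.2% and 6.28% of all genes), 1 where every library had to hold at least 50 hits (2 members tested), and 50 to 54 without single libraries. In reading frames the count of 40 became 26 with each position once, 12 with at least 50 hits (19 tested) and 33 to 41 without single libraries. Downstream it was 36, and 31 to 37 without single libraries. Spike-in library sizes, which move the median of all windows by 1.58, gave 63 calls in frames and 66 downstream, all of them rises, as for 95.5% and 97.5% of all genes. Such calls leave out calibration error, since a group has 1 factor. Within pdr1 the 68 calls became 45 with DESeq2, 3 with at least 50 hits, 143 with spike-in sizes and 20 to 70 without single libraries. Within pdr1sae2 the 45 became 5 with at least 50 hits, 192 with spike-in sizes and 17 to 48 without single libraries, and within pdr1mre11 the 88 became 7, 198 and 51 to 88. Between strains spike-in sizes gave 178 calls for pdr1sae2 with VP16 and 198 for pdr1mre11 with VP16. They gave 6 for pdr1mre11 untreated and 198 for its VP16 response, where the other settings gave 0 or 1. The spike-in factor scales every window of a library alike, so these counts are not a result about the members. Other counts here without a share of all genes beside them are not read as one either. The MRPL44 call between untreated strains was lost (0 calls) with at least 50 hits, and ranged from 0 to 1 without single libraries. The other strain counts stayed at 0 to 0 without single libraries. The rise in the upstream to frame ratio, 0.60, was 0.32 with each position once, 1.03 with 200 bp flanks, 0.73 with trimmed flanks and 0.56 to 0.64 without single libraries, and the calibrated log2 change upstream, 2.01, was 1.95 to 2.05.

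With spike-in sizes these changes turned positive: upstream MRPL27 0.47, MRPS17 0.61, RSM27 0.79, MRPL3 1.18 and the uncalled MRPL44 1.40, in frames MRPS5 0.26, MRPL28 0.54, MRPS35 0.52 and MRPL36 0.76, and downstream MRPL22 0.57, MRPL35 0.82, MRPL38 0.89 and MRPL11 0.87. With each position once MRPL3 upstream was 0.034. The causes of these changes were not tested beyond what each setting does by construction (fewer windows, fewer hits, another scale). With a replicate block the counts were 53, 40 and 38 upstream, in frames and downstream, 72, 57 and 92 within strains, 0, 0, 0 and 1 between strains, and the block changed no call of a named window. Some windows in the strain comparisons hold only 11 hits in a library.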
